A study of Mnemiopsis leidyi with 50 samples.

Results

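MlBsh (protein model ML08269a), MlIslet (ML053012a) and MlPRD10a (ML148940a) are homeobox transcription factors of the ctenophore Mnemiopsis leidyi. They are 3 of the 16548 protein models in the count table, taken by their identifiers, and their CPM (counts scaled to a common total in each embryo) are described in every embryo from 1 to 20 hours post fertilization (hpf). The study asked which genes belong to the tentacles and to the colloblasts, the adhesive cells that cover them. MlPRD10a is on its list of tentacle candidates, models that were sought in ctenophores with tentacles and found missing in those without. The lists used here hold 144 tentacle and 161 colloblast candidates, which is not all that the study counted, and MlBsh and MlIslet are on neither. The study named them for their reads in single cells. It also reports higher levels of MlBsh, MlIslet and MlPRD10a in the adult tentacle bulb than in the comb rows (rows of cilia). These adult tissues are not among the counts used here.

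Homeobox genes encode proteins with a homeodomain, a fold that binds DNA, and many of them set the identity of cells during development. Bsh is known from Drosophila, where it specifies neurons of the optic lobe. Islet is a LIM homeobox gene, and in vertebrates it is known for its part in motor neurons, the pancreas and the heart. The paired (PRD) class, to which MlPRD10a is assigned by name, holds factors of head and sense organ development in flies and vertebrates. In situ hybridization in M. leidyi embryos has placed MlBsh transcripts in the tentacle bulb, the tissue from which the tentacle grows, and MlIslet transcripts near the apical organ, a sensory structure. No function of the 3 genes in ctenophores was measured here.

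The data are counts from CEL-Seq, in which each embryo's RNA receives its own barcode and reads start at the 3′ end of transcripts. There was 1 embryo at each of the 17 time points from 1 to 12 hpf and there were 4 embryos at each hour from 13 to 20 hpf, 49 embryos in all, untreated and snap frozen. One further embryo at 0 hpf had 1119 counts, with none for any of the 3 genes, and it was kept out. The labels number the embryos, and do not say whether those of an hour came from one spawning. P-values measure the spread between these embryos. In groups that join several time points this spread includes change with time. To 12 hpf, with 1 embryo per time point, such change and differences between embryos of one age cannot be told apart.

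Totals ranged from 18731 to 2079694 counts (median 842919). Totals were under 300000 counts in 4 embryos, at 5.5 hpf (138478), 15 hpf (18731) and 19 hpf (134806 and 278730). Embryos numbered 41–60 held all time points to 12 hpf and 1 embryo each at 13 and 20 hpf. Those numbered 61–90 held the other 30 embryos from 13 to 20 hpf. Of the reads, 3.21–4.54% were ambiguous in the first run of numbers and 0.740–2.04% in the second, and 45.6–50.7% and 55.4–78.4% were not aligned. Time and run therefore nearly coincide. Their parts in a difference between the windows rest on the late embryos of the first run, which number 3, and could otherwise not be told apart. In whole embryos, fewer cells that express a gene and less RNA per cell cannot be told apart.

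The 3 genes were detected in different order. MlBsh had counts in every embryo from 1 hpf on. MlPRD10a had 1 count over 1–3 hpf, was present in every embryo from 4 hpf and had its highest time-point mean at 6 hpf. A shallow embryo at 19 hpf was slightly higher (163 against 157 CPM). MlIslet was absent or at a few counts until 8.5 hpf and had its highest value at 11 hpf.

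**Figure D1:**
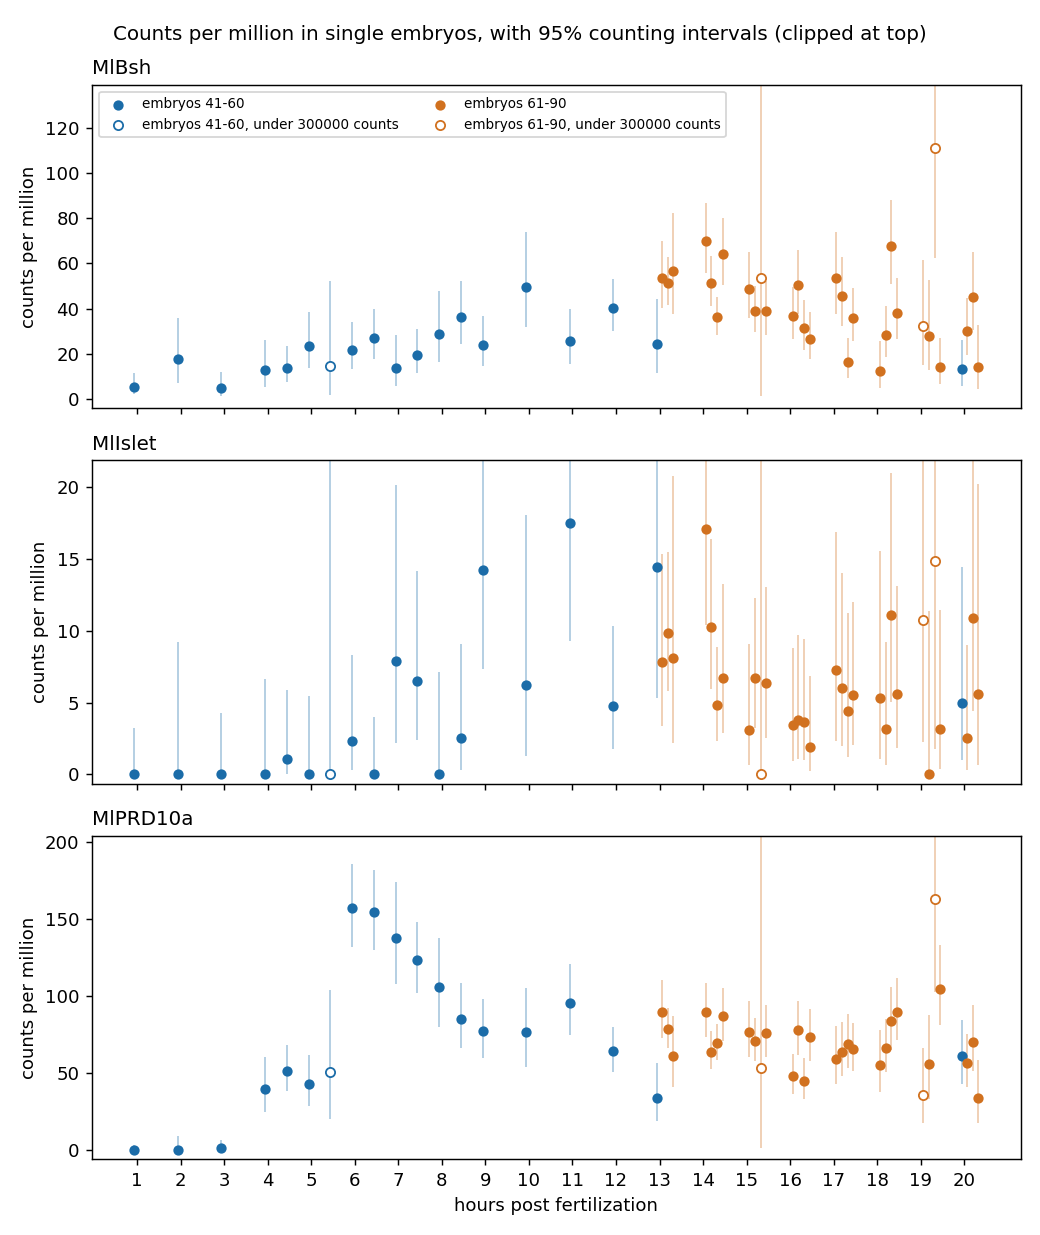
CPM of the 3 genes (y axis, a scale for each gene) against hours post fertilization (x axis). Each point is 1 embryo, coloured by the run of embryo numbers and open where the total is under 300000 counts, and bars are 95% Poisson intervals for counting error. MlPRD10a steps up between 3 and 4 hpf and again between 5.5 and 6 hpf, MlBsh climbs slowly to 14 hpf, and MlIslet stays near 0 until 6 hpf.

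MlPRD10a went from near absence to its highest time-point mean within 3 hours. Its values were 0, 0 and 1.16 CPM at 1, 2 and 3 hpf, where the 3 embryos together held 1 count in 2417193. That is a pooled level of 0.414 CPM with an exact Poisson 95% interval of 0.0105 to 2.30, which covers counting error only, as do all intervals given here. At 4, 4.5, 5 and 5.5 hpf it stood at 39.7, 51.4, 42.7 and 50.5 CPM (46.1 ± 5.78, SD, n = 4). These embryos lay together, and well above the 3 before them.

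A second step followed at 6 hpf, where MlPRD10a reached 157 CPM (137 counts, interval 132–186), against 42.7 CPM at 5 hpf (28.6–61.4). From there it was lower at each time point, at 154, 138, 123, 106, 85.3, 77.1 and 76.4 CPM at 6.5, 7, 7.5, 8, 8.5, 9 and 10 hpf. It then measured 95.5 CPM at 11 hpf and 64.0 CPM at 12 hpf. The interval at 9 hpf (59.5–98.3) lay wholly below that at 6 hpf. The mean over 6–8 hpf was 136 ± 21.5 CPM (n = 5) and that over 9–12 hpf was 78.3 ± 13.0 CPM (n = 4), and no embryo of the later group reached the lowest of the earlier one (106 CPM).

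Few models shared this course at such a level. Of the 2343 models with a mean of at least 50 CPM over 6–8 hpf, 32 had at most 1 count over 1–3 hpf, and MlPRD10a was in place 5 of the 32 by its mean at 6–8 hpf. It was also 1 of 21 among the 32 with a lower mean at 13–20 hpf than at 6–8 hpf. Of the 144 tentacle and 161 colloblast candidates used here, no other was among the 32. The colloblast candidate ML03443a narrowly missed the limit on early counts, with 2, 0 and 1 counts at 1, 2 and 3 hpf. Its mean over 6–8 hpf was 153 CPM. These limits were set after the values of MlPRD10a had been seen, so the counts are a description.

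MlBsh was measured from the start and climbed slowly. It had 5.21, 17.4 and 4.63 CPM at 1, 2 and 3 hpf (17 counts in all), and 12.6, 13.6, 23.6 and 14.4 CPM at 4, 4.5, 5 and 5.5 hpf. At 6, 6.5, 7, 7.5 and 8 hpf it stood at 21.8, 27.0, 13.8, 19.5 and 28.9 CPM, and at 8.5, 9, 10, 11 and 12 hpf at 36.4, 23.7, 49.5, 25.6 and 40.3 CPM. Neighbouring time points overlapped in their counting intervals throughout this stretch. The means moved in one direction, from 9.09 ± 7.23 CPM over 1–3 hpf (n = 3) to 16.1 ± 5.07 (n = 4), 22.2 ± 6.03 (n = 5) and 34.8 ± 12.3 CPM (n = 4) over 4–5.5, 6–8 and 9–12 hpf.

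MlIslet was the rarest of the 3 in counts, with 235 in all 49 embryos. It had no count at 1, 2, 3, 4, 5, 5.5, 6.5 and 8 hpf. The limit that 3 counts would set in these 8 embryos ran from 2.61 CPM at 1 hpf to 21.7 CPM at 5.5 hpf, so low levels were not detectable in single embryos. Over 1–3 hpf together the limit was 1.24 CPM. It had 1 count at 4.5 hpf, 2 at 6 hpf, 4 at 7 hpf (7.88 CPM), 6 at 7.5 hpf (6.49 CPM) and 2 at 8.5 hpf. From 9 hpf on it was present at each time point to 14 hpf. The values were 14.2, 6.19, 17.5 and 4.74 CPM at 9, 10, 11 and 12 hpf, from 12, 3, 13 and 6 counts.

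**Figure D2:**
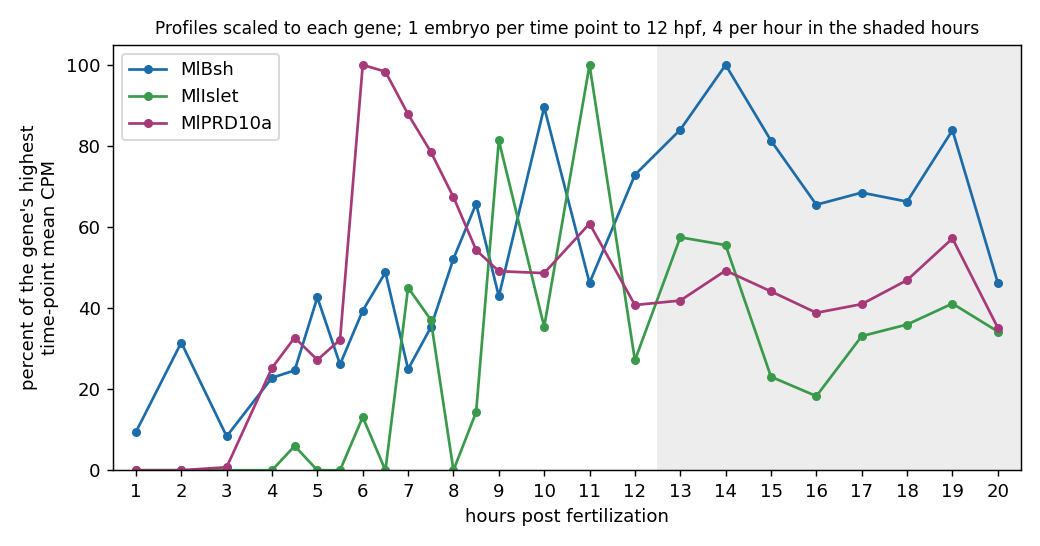
Mean CPM at each time point as a percentage of the gene's own highest time-point mean (y axis) against hours post fertilization (x axis). MlPRD10a is at its highest at 6 hpf, MlIslet at 11 hpf and MlBsh at 14 hpf. Points to 12 hpf are 1 embryo each and points in the shaded hours are means of 4 embryos.

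The course from 1 to 12 hpf lies wholly within embryos 41–60, so it does not cross the runs. An F-test of edgeR over a smooth curve in time (natural spline with 3 degrees of freedom, 17 embryos), added after the values had been seen, called a change in all 3 genes. The adjusted p (Benjamini-Hochberg over the 6332 models tested) was 1.72e-08 for MlPRD10a, 0.00122 for MlBsh and 0.00114 for MlIslet. In this test 52.0% of all models were called, so a call by itself sets none of the 3 apart. Without any one time point the adjusted p stayed at or below 2.03e-06 for MlPRD10a and at or below 0.00843 for MlBsh. For MlIslet it stayed at or below 0.00494 in the 15 of 17 cases in which the gene passed the filter on low counts.

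Within the same run the embryos at 9–12 hpf were compared with those at 1–8.5 hpf. For MlIslet the mean was 10.7 ± 6.18 CPM (n = 4) against 1.56 ± 2.67 CPM (n = 13). The difference of 9.11 CPM had an exact permutation p of 0.00504 (two-sided, 0.00756 adjusted over the 3 comparisons in which MlIslet was tested in this way). MlIslet failed the count filter of edgeR here, and without that filter its log2 fold change was 2.74 (SE 0.85, adjusted p = 0.0335 with edgeR). The embryos at 9 and 11 hpf lay above all 13 earlier ones, whereas those at 10 and 12 hpf fell within their range.

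For MlBsh the log2 fold change between 9–12 and 1–8.5 hpf was 1.16 (SE 0.45), with edgeR's unadjusted p = 0.018 and adjusted p = 0.0818, so it was not called. The embryos at 10 and 12 hpf lay above all 13 earlier ones. With 8.5 hpf left out the adjusted p was 0.0394, the 1 call among 17 fits that each left out a time point (up to 0.248). With 10–12 against 1–8 hpf it was 0.0374 at a log2 fold change of 1.5. MlBsh was not called with RLE factors, library size alone, DESeq2, no filter or without shallow embryos (adjusted p from 0.0739 to 0.133). For MlPRD10a the log2 fold change was 0.35 (SE 0.85, adjusted p = 0.807), as the early group holds its values both before and at its highest level. Of all 5589 models tested, 8.57% rose, and neither of the 2 members tested with them was called. With library size alone in place of TMM factors, 35.2% of the calls were rises, against 60.6%, and the median log2 fold change of all models was −0.33 in place of −0.03. Relative to that median MlBsh stood at 1.24 and at 1.20.

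From 13 to 20 hpf there were 4 embryos an hour. MlBsh had 24.1, 53.7, 51.3 and 56.8 CPM at 13 hpf and 70.0, 51.2, 36.1 and 63.9 CPM at 14 hpf. It had 48.8, 38.8, 53.4 and 38.9 CPM at 15 hpf, where 53.4 CPM is 1 count, and 36.8, 50.2, 31.2 and 26.6 CPM at 16 hpf. Except for embryo 59 at 13 hpf, the hours 13 and 14 held mostly values above 50 CPM, and 16 hpf mostly values below 40 CPM.

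Later embryos spread more widely in MlBsh. The values were 53.5, 45.6, 16.4 and 35.9 CPM at 17 hpf and 12.4, 28.4, 67.7 and 38.2 CPM at 18 hpf. At 19 hpf they were 32.3, 27.8, 111 and 14.3 CPM, with the highest from 15 counts in an embryo of 134806, and at 20 hpf 13.2, 30.0, 45.2 and 14.0 CPM. Within 18 hpf the counting intervals of the lowest (4.99–25.5) and the highest embryo (51.0–88.1) did not overlap. The interval of embryo 88 (26.4–53.3) did not overlap with the lowest either. In the highest embryo of 18 hpf, 78.4% of reads were not aligned, against 57.9–60.1% in the others of that hour. In the highest of 19 hpf this was 74.3%, against 58.0–64.6%. The bearing of these shares on the spread was not tested. All 4 hours overlapped with one another in range.

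The order of the hours in MlBsh, by mean CPM, was 14 (55.3 ± 15.0), 13 (46.5 ± 15.1), 19 (46.4 ± 43.9), 15 (45.0 ± 7.32), 17 (37.9 ± 16.0), 18 (36.7 ± 23.3), 16 (36.2 ± 10.2) and 20 hpf (25.6 ± 15.2, SD, n = 4 each). No neighbours in this order differed beyond their spread (exact permutation p from 0.286 to 1). The order was made from the same means, so neighbours are the closest hours and these tests say little about change across the hours. The highest and the lowest hour, 14 and 20 hpf, were picked from the same values and had an exact permutation p of 0.0571 (unadjusted). The place of 19 hpf rests on the shallow embryos: its mean was 21.03 CPM, the lowest of all, over the 2 embryos with at least 300000 counts.

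MlIslet stayed at a few counts in most embryos of these hours. It had 14.5, 7.81, 9.82 and 8.12 CPM at 13 hpf, 17.1, 10.2, 4.81 and 6.73 CPM at 14 hpf and 3.12, 6.69, 0 and 6.33 CPM at 15 hpf, with the 0 from the embryo of 18731 counts. At 16 hpf it had 3.43, 3.79, 3.67 and 1.90 CPM, and at 17 hpf 7.24, 6.00, 4.38 and 5.53 CPM. All 4 embryos at 13 hpf lay above all 4 at 16 hpf. The hours from 18 on overlapped with both, at 5.31, 3.15, 11.1 and 5.61 CPM at 18 hpf, 10.8, 0, 14.8 and 3.17 CPM at 19 hpf and 4.95, 2.50, 10.9 and 5.59 CPM at 20 hpf.

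By mean CPM the order in MlIslet was 13 (10.1 ± 3.07), 14 (9.72 ± 5.40), 19 (7.19 ± 6.81), 18 (6.29 ± 3.37), 20 (5.99 ± 3.54), 17 (5.79 ± 1.18), 15 (4.03 ± 3.13) and 16 hpf (3.20 ± 0.88). Neighbours again did not differ beyond their spread (exact permutation p from 0.371 to 0.886). The highest and the lowest hour, 13 and 16 hpf, picked in the same way, had an unadjusted exact permutation p of 0.0286. Without shallow embryos 19 hpf stood in the last place, at 1.58 CPM (n = 2).

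MlPRD10a held a nearly level course. It had 33.8, 89.8, 78.6 and 60.9 CPM at 13 hpf, 89.7, 63.9, 69.2 and 86.7 CPM at 14 hpf, 76.9, 70.9, 53.4 (1 count) and 76.0 CPM at 15 hpf and 48.0, 77.7, 45.0 and 73.3 CPM at 16 hpf. It had 59.3, 63.6, 69.0 and 65.4 CPM at 17 hpf and 54.9, 66.2, 83.7 and 89.8 CPM at 18 hpf. These embryos all lay below the 5 of 6–8 hpf (106–157 CPM). At 19 hpf it had 35.9, 55.6, 163 and 104.5 CPM and at 20 hpf 61.0, 56.2, 70.2 and 33.6 CPM, and the value of 163 CPM (22 counts, interval 102–247) came from the same shallow embryo as the highest MlBsh value.

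The order in MlPRD10a was 19 (89.8 ± 56.8), 14 (77.4 ± 12.7), 18 (73.7 ± 16.0), 15 (69.3 ± 10.9), 13 (65.7 ± 24.4), 17 (64.4 ± 4.03), 16 (61.0 ± 16.9) and 20 hpf (55.2 ± 15.6). Its neighbours did not differ beyond their spread either (exact permutation p from 0.629 to 0.943). For its highest and lowest hours, 19 and 20 hpf, the unadjusted exact permutation p was 0.343. Over the 3 genes 21 neighbouring pairs were tested, with every adjusted p at 1. The smallest p that 4 against 4 embryos can give is 0.0286.

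Across the 8 hours no change was called in any of the 3 genes (edgeR, F-test over embryos 61–90, adjusted p = 0.923 for MlBsh, 0.879 for MlIslet and 0.945 for MlPRD10a). Of the 8940 models tested, 3.03% were called, so most models gave no call here. Between 17–20 and 13–16 hpf, where 5.43% of models were called, the log2 fold change was −0.34 for MlBsh (SE 0.23, adjusted p = 0.503) and −0.03 for MlPRD10a (SE 0.16, adjusted p = 0.962). Without the shallow embryos that of MlBsh was −0.55 (SE 0.23, adjusted p = 0.18). MlIslet had means of 6.40 ± 3.94 and 6.24 ± 4.16 CPM (n = 15 each) in the later and the earlier hours, and an adjusted p of 1.00.

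The spread between embryos of one hour differed among the 3 genes. Divided by the degrees of freedom (22 for 30 embryos), the chi-square of the counts within hours was 5.52 for MlBsh, 1.45 for MlIslet and 2.99 for MlPRD10a, where 1 is counting error alone. The models within 1.5-fold of each gene's level had medians of 4.34 (1894 models), 2.84 (2071) and 5.32 (1533). MlPRD10a and MlIslet thus varied less between embryos than 86.8% and 94.8% of models of like level, and MlBsh more than 66.6% of its own.

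The study's windows set 12–20 hpf, when the tentacles form (33 embryos), against the hours to 9 hpf (14 embryos from 1 hpf). MlBsh ranged from 4.63 to 36.4 CPM (median 18.5) in the early window and from 12.4 to 111 CPM (median 38.8) in the late one. Of the 33 late embryos, 19 lay above all early ones. Its log2 fold change was 0.93 (SE 0.25, adjusted p = 0.000748 with edgeR), and this was the one rise among the 2 members tested. Of all 6852 models 44.5% rose, with a median log2 fold change of 0.27, so that MlBsh stood 0.65 above the median. This distance depended on which models were tested. Relative to the median MlBsh stood at 0.665 with RLE factors, at 0.17 with DESeq2 and at −0.08 without the count filter. In the latter 2 fits the median of all models was 1.03 and 1.00. Without 1–3 hpf the log2 fold change was 0.67 (adjusted p = 0.0102).

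The rise of MlBsh was not called once the run of embryo numbers was taken into account. With the run as a term its log2 fold change was 0.59 (SE 0.45, adjusted p = 0.315), where 25.1% of models rose. Within embryos 41–60 the 3 late embryos had 40.3, 24.1 and 13.2 CPM at 12, 13 and 20 hpf and overlapped with the 14 early ones. The log2 fold change was 0.64 (SE 0.53, adjusted p = 0.395), and 13.3% of the 6058 models rose. With RLE factors 66.3% of the calls in that comparison were rises, against 54.3% with TMM and 44.5% with library size alone.

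The embryos of the 2 runs can be set side by side at 13 and 20 hpf. At 13 hpf embryo 59 of the first run had 24.1 CPM of MlBsh, against 51.3–56.8 CPM in the 3 embryos of the second run. The same embryo had 33.8 CPM of MlPRD10a, against 60.9–89.8 CPM, and 14.5 CPM of MlIslet, against 7.81–9.82 CPM. At 20 hpf embryo 60 had 13.2 CPM of MlBsh, against 14.0–45.2 CPM. It fell within the range of the second run in both other genes. Over all models with at least 5 CPM the median log2 ratio of the second run to the first was 0.32 at 13 hpf and 0.30 at 20 hpf. The part of the run in the MlBsh values was not tested beyond the fits above.

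MlIslet had a mean of 2.46 ± 4.25 CPM in the early window (8 of 14 embryos without a count) and 6.48 ± 4.07 CPM in the late one (2 of 33 without a count). The difference of 4.02 CPM had a permutation p of 0.0022 (two-sided, 100000 resamples, 0.0066 adjusted over the 3 comparisons). A rise of this size was common among all models. In edgeR without the count filter the log2 fold change of MlIslet was 1.07 (SE 0.45, adjusted p = 0.0349). The median of all models there was 1.00, and 7284 of 15143 rose. With DESeq2 MlIslet was at 1.40, against a median of 1.03. The ranges overlapped, from 0 to 14.2 and from 0 to 17.1 CPM, and 3 late embryos lay above all early ones. Within embryos 41–60 the means were 2.46 and 8.05 ± 5.56 CPM (n = 3), with an exact permutation p of 0.0882. In a fit without the filter and with the run as a term the log2 fold change was 1.53 (SE 0.79, adjusted p = 0.173 with edgeR). The median of all models in that fit was 0.

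MlPRD10a averaged 73.3 ± 55.8 CPM in the early window and 69.4 ± 23.7 CPM in the late one, with a log2 fold change of −0.29 (SE 0.31, adjusted p = 0.391). The early window joined its lowest embryos and its highest time-point mean, from 0 to 157 CPM. In the late window 1 embryo, the shallow one of 163 CPM at 19 hpf, lay above all early ones. Without 1–3 hpf, an alternative chosen after seeing the data, MlPRD10a fell by 0.66 on the log2 scale (SE 0.18, adjusted p = 0.00109), where 29.9% of 7023 models fell. Within embryos 41–60 the same windows gave −0.68 (SE 0.48, adjusted p = 0.326), and the late embryos there had 64.0, 33.8 and 61.0 CPM.

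**Figure D3:**
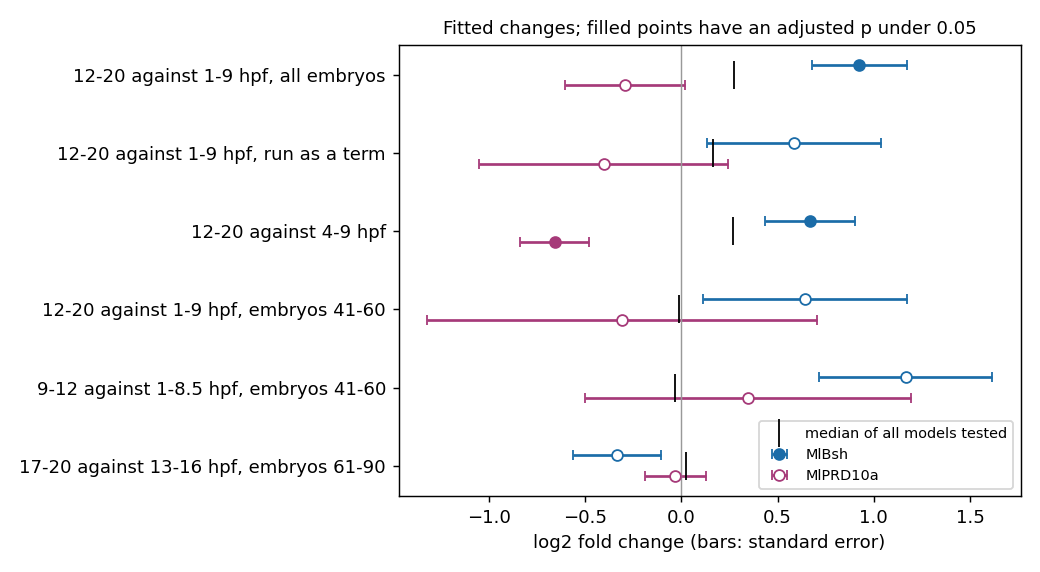
Log2 fold changes of MlBsh and MlPRD10a (x axis, bars are standard errors) in 6 comparisons (y axis), with the median of all models tested as a black mark. Filled points had an adjusted p under 0.05 in edgeR. MlBsh is filled at 0.93 and 0.67 in the comparisons that cross the runs without a term, MlPRD10a is filled at −0.66 when 1–3 hpf are left out, and all points within 1 run are open. MlIslet is not drawn, as it failed the filter in most of these fits.

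Over the 25 time points the 3 genes resembled one another moderately. Pearson's r of log2(mean CPM + 1) was 0.58 between MlBsh and MlIslet, 0.64 between MlBsh and MlPRD10a and 0.51 between MlIslet and MlPRD10a. The points share their libraries, and the first 17 are single embryos. Against all 7394 models with a mean of at least 5 CPM the median r was 0.15, 0.16 and 0.05 for MlBsh, MlIslet and MlPRD10a. Spearman's rho was 0.52 between MlBsh and MlIslet, 0.36 between MlBsh and MlPRD10a and 0.48 between MlIslet and MlPRD10a. Over 13–20 hpf in embryos 61–90 alone, r of these pairs was 0.53, 0.78 and 0.50. These means include the shallow embryo 82 at 19 hpf, which held the highest values of MlBsh and MlPRD10a (111 and 163 CPM). Over the 2 embryos of 19 hpf with at least 300000 counts, MlBsh averaged 21.03 CPM in place of 46.4 CPM. MlPRD10a averaged 80.061 CPM there, in place of 89.8 CPM. How far the r of 0.78 rests on the shallow embryo was not tested.

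The models most like MlPRD10a were ML149617a (r = 0.96, highest at 6 hpf) and ML03443a (r = 0.96, highest at 7 hpf at 284 CPM). ML03443a is a colloblast candidate. It had 0.965 ± 0.88 CPM over 1–3 hpf, 72.4 ± 18.2 over 4–5.5 hpf, 153 ± 85.1 over 6–8 hpf and 95.6 ± 29.9 CPM over 13–20 hpf. Its first step came between 3 and 4 hpf (1.16 and 55.9 CPM), as in MlPRD10a. Unlike MlPRD10a it showed no second step at 6 hpf, where it had 86.0 CPM after 93.9 CPM at 5.5 hpf. Its likeness to MlPRD10a was 0.64 by Spearman's rho and r = −0.39 over 13–20 hpf alone. The next candidates were further away, the tentacle candidates ML190419a (r = 0.85) and ML047934a (r = 0.70) and the colloblast candidate ML148939a (r = 0.74), whose identifier directly precedes that of MlPRD10a.

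The models most like MlBsh were ML073044a (r = 0.90) and ML001516a (r = 0.90), both highest at 14 hpf, as MlBsh was. The nearest candidates were ML148942a (r = 0.84), ML074411a (r = 0.83) and ML15994a (r = 0.83). ML148942a is a tentacle candidate annotated as WW domain-binding protein 1-like, ML074411a a tentacle candidate with a sulfotransferase domain, and ML15994a a colloblast candidate of the papain family of peptidases. All 3 had no count at 1–3 hpf, unlike MlBsh. Over 13–20 hpf alone r was −0.0068 for ML148942a, −0.024 for ML074411a and 0.81 for ML15994a.

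The models most like MlIslet were ML040724a (r = 0.88) and ML056911a (r = 0.87), both highest at 11 hpf, as MlIslet was. The nearest candidates were ML223513a (r = 0.85), a rhodopsin-like G protein-coupled receptor, and the colloblast candidates ML023010a (r = 0.85) and ML04973a (r = 0.84). Over the 8 hours from 13 to 20 hpf alone, r was −0.21 with ML040724a, and for MlPRD10a it was −0.07 with ML149617a. No likeness of these pairs was thus visible within the later hours.

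**Figure D4:**
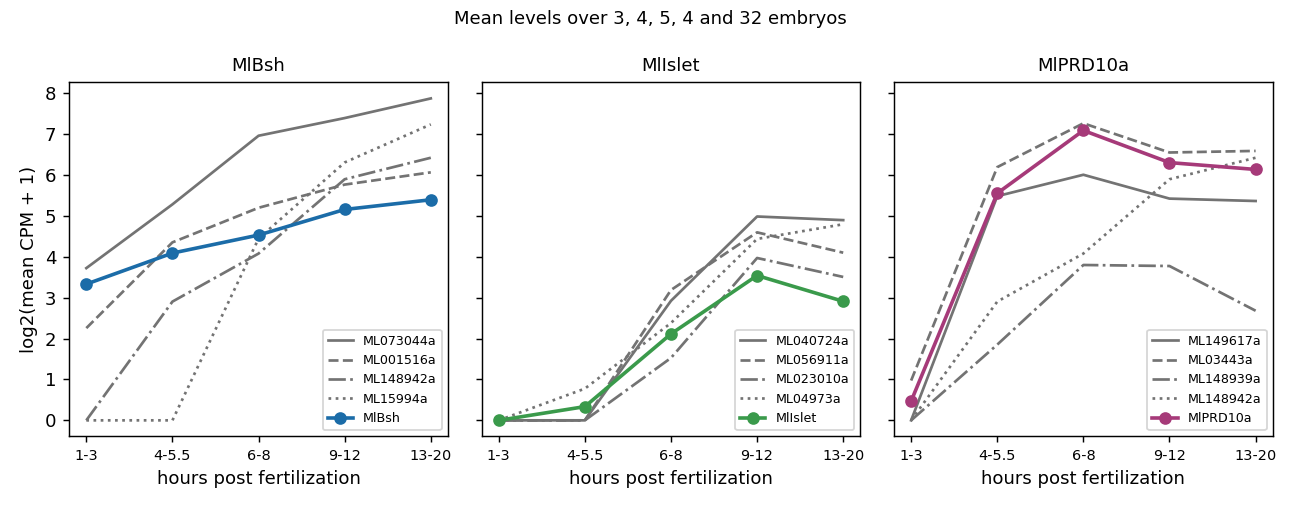
Log2(mean CPM + 1) over 1–3, 4–5.5, 6–8, 9–12 and 13–20 hpf (x axis, 3, 4, 5, 4 and 32 embryos) for each gene in colour and for the models most like it or next to it by identifier in grey. Heights of different models are not comparable, as the part of each transcript that was counted is unknown, and only the shapes are. MlPRD10a and ML03443a share the rise to 6–8 hpf, whereas ML148942a, whose identifier lies close to that of MlPRD10a, keeps rising.

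Neighbouring identifiers did not share one course with the members. Neighbourhood here is that of the identifier numbers alone, as no positions were used. ML148942a rose between the windows (from 12.47 ± 13.7 to 84.5 ± 25.5 CPM, log2 fold change 2.57, adjusted p = 1.15e-08) and with the run as a term (2.64, adjusted p = 0.000106). ML148938a fell by 1.08 (adjusted p = 1.33e-06), from 92.9 ± 24.8 to 51.6 ± 43.4 CPM, but not with the run as a term (adjusted p = 0.179). Beside MlIslet, ML053014a rose from 65.1 ± 24.0 to 328 ± 132 CPM (log2 fold change 2.27, adjusted p = 1.82e-14, and 2.09 with the run as a term, adjusted p = 2.78e-07), whereas ML053010a did not pass the test (0.22, adjusted p = 0.288).

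Beside MlBsh, ML082611a rose from 4.01 ± 4.03 to 60.1 ± 54.8 CPM (adjusted p = 9.62e-10), which did not hold with the run as a term (log2 fold change 0.10, adjusted p = 0.943). The tentacle candidates ML08265a and ML08266a, the latter with an immunoglobulin-like fold, had 37 and 22 counts in all, none of them before 13 hpf. Of the 14 neighbouring identifiers 5 were tested between the windows, of which 3 rose and 1 fell, and with the run as a term 2 rose and none fell. Over all models 44.5% rose and 31.8% fell in the first fit, so that these few models allow no statement on the neighbours as a group.

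The study names more transcription factors than were taken up here. Beside the members, these were the nuclear receptors MlNR1 (ML073417a) and MlNR2 (ML305522a) and 3 candidates picked by annotations of DNA binding or transcription. Nuclear receptors are a family of factors often controlled by small ligands. MlNR1 took the opposite course to MlBsh. It was highest at 2 hpf (1013 CPM) and fell from 504 ± 278 to 136 ± 43.3 CPM (log2 fold change −1.91, adjusted p = 1.67e-16, and −1.80 with the run as a term, adjusted p = 5.46e-05). ML11132a, with a paired amphipathic helix domain, rose from 2.94 ± 4.55 to 73.4 ± 36.2 CPM (adjusted p = 8.73e-14). ML003220a, annotated as histone H5, had 0.429 ± 1.29 CPM in the early window and 625 ± 407 CPM in the late one. Of the 5 regulators listed beside the members, 3 were tested, of which 2 rose and 1 fell, with or without the run as a term (44.5% and 31.8% of all models without it), while MlNR2 and ML073244a had too few counts in this comparison.

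Most tentacle candidates had their highest mean later than MlPRD10a. Of the 45 tentacle candidates with a mean of at least 5 CPM, 7 (15.6%) were highest at 6–8 hpf, as MlPRD10a was, and 24 (53.3%) at 15–20 hpf. Over all 7394 such models the shares were 12.4% and 31.1%. Of the 43 tentacle candidates tested between the windows 31 rose and 5 fell, with a median log2 fold change of 2.57. Over all models 44.5% rose and 31.8% fell, with a median of 0.27. With the run as a term 23 of the 43 rose and 1 fell, where 25.1% of all models rose. MlPRD10a, at −0.29, was among the 7 that did not pass. The candidates were selected by their presence in species, without use of these counts.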

How the data were processed

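CEL-Seq was run on individual M. leidyi embryos. The deposited values are raw counts per protein model (ML2.2), made by the authors with CASAVA 1.8, Bowtie2 2.1.0 and HTSeq 0.5.4p3, as the submitters' processing notes list them. Genome build, counting options and any collapsing of molecular identifiers: not given in the sources used here. If they were not, reads are not independent molecules and intervals are too narrow. Rows that name no model were kept out of totals: they took 0.740–4.54% (ambiguous), 10.7–24.0% (low quality) and 45.6–78.4% (not aligned) of an embryo's reads. Counts are of 3′ ends, so a difference in level between models was not read as a difference in abundance. Levels of different models were set side by side to apply limits, to rank models and to find models of like level. Of 48 pairs of embryos of the same hour none agreed within sampling noise (chi-square per degree of freedom 3.06–30.4).

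CPM was computed from each embryo's total. Windows and hours were compared with edgeR 4.0.16 (TMM factors, filterByExpr, quasi-likelihood F-test) in R 4.3.3 on all models, with Benjamini-Hochberg adjusted p-values under 0.05. MlIslet, which failed the filter in 3 comparisons, neighbouring hours, and each gene's highest and lowest hours were compared by permutation of mean CPM (scipy 1.17.1). The permutation was exact where a group had fewer than 10 embryos. Alternatives were DESeq2 1.42.0, RLE factors, totals without factors, no filter, other windows, the run of embryo numbers as a term, and leaving out shallow embryos, time points or single embryos. The spline test, the early window without 1–3 hpf, the unfiltered fit with the run as a term, the series of embryo numbers as a block, the summaries by phase and the spread within hours were chosen after seeing the data. Other versions were Python 3.11.15, numpy 2.4.6, pandas 2.3.3 and matplotlib 3.10.9. The scripts were tested on simulated data.

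Models named are the 3 members, the 5 other regulators, the identifiers within 2 places of a member with the candidates ML08265a and ML08266a, and for each member the 2 models and 3 candidates with the highest r. The candidates, 144 tentacle and 161 colloblast models, are a part of the study's lists. The members and lists were chosen with earlier results of these data known. None of the identifiers is in the reference table of gene names, and no sequence is shown.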

Additional observations from a re-analysis of the deposited data

Results flagged for a closer look

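One value stood apart from its group. At 13 hpf MlBsh was at 24.1 CPM in embryo 59 and between 51.3 and 56.8 CPM in the 3 other embryos, so that the gap was larger, as a share of the range, than Dixon's critical value for 4 embryos. Embryo 59 is the embryo of that hour in the first run of numbers. The test was made in 24 groups (3 genes in 8 hours), where chance gives about 1 in 20.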

How the results depend on the processing

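MlBsh between the windows stayed called with RLE factors, library size alone, DESeq2, no filter, other window limits and without shallow embryos or any time point (log2 fold change 0.67 without 1–3 hpf to 1.20 with DESeq2, and 0.83 to 1.08 without single time points), and lost its call with the run as a term (0.59). MlIslet kept its call in that comparison (3.52 to 4.92 CPM without single time points), except in the unfiltered fit with the run as a term (log2 1.53). MlPRD10a there ranged from −0.41 to −0.14 without single time points and was called without 1–3 hpf (−0.66). Within embryos 41–60 leaving out time points gave 0.20 to 1.07 for MlBsh, −0.41 to 0.052 for MlPRD10a, which turned positive without 13 hpf, and 2.38 to 7.24 CPM for MlIslet, called without 9 hpf (6.50 CPM, exact permutation p = 0.0286). At 9–12 against 1–8.5 hpf it gave 0.94 to 1.33 for MlBsh, called without 8.5 hpf, 0.14 to 0.54 for MlPRD10a and 6.83 to 11.1 CPM for MlIslet. MlBsh was also called with 10–12 against 1–8 hpf (1.5). At 17–20 against 13–16 hpf values near 0 changed sign: MlIslet was at 0.033 with RLE factors and 0.0031 with DESeq2, and −0.25 to 0.094 without single embryos. MlPRD10a was at 0.0020 with RLE factors, 0.038 with all 32 embryos and −0.15 to 0.023 without single embryos, and MlBsh at −0.50 to −0.25.

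The number of models called between the windows was 5224, against 8756 with DESeq2, 9900 without the filter, 2728 with the run as a term and 3271 with both of the latter. Within embryos 41–60 it was 1480, against 2476 without the filter and 825 to 1556 without single time points (919 without 13 hpf, 825 without 20 hpf). At 9–12 hpf it was 790, against 1215 with DESeq2, 1712 without the filter and 165 to 1046 without single time points (367 without 10, 375 without 11 and 165 without 12 hpf). Across 13–20 hpf it was 271, against 545 with DESeq2 and 577 for a linear trend in hours, and from 1 to 12 hpf 3295, against 5197 without the filter. Where the cause is not in the setting itself, it was not tested. The labels pair no embryos, but embryos 61–90 form 4 series of consecutive numbers over the hours. With the series as a replicate block, chosen after seeing the data, 248 models were called across 13–20 hpf and 466 (485 without the block) at 17–20 against 13–16 hpf. The 3 genes stayed without a call (adjusted p 0.933 to 0.967 and 0.530 to 0.993; log2 fold change −0.35 for MlBsh, −0.029 for MlIslet and −0.061 for MlPRD10a). Embryos of 1 series did not deviate together from their hours' means (median r −0.020 over 78 pairs, against 0.0029 over 239 pairs of other series). Likeness to ML073044a fell to r = 0.47 for MlBsh over 13–20 hpf. For MlIslet with ML040724a it was 0.73 by Spearman and −0.21 over 13–20 hpf, and for MlPRD10a with ML149617a 0.65 and −0.069. There was 1 embryo per time point to 12 hpf, and MlIslet had 1 to 13 counts where it was found before 13 hpf.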
